A study of Oryctolagus cuniculus with 49 samples.

Results

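Solute carriers are membrane proteins that move ions, sugars, amino acids, vitamins, metals and other small molecules into and out of cells and organelles. Their genes carry numbered family names, and members of a number family usually share a kind of substrate. The genes described here are every symbol of the rabbit iris and ciliary body table that begins with SLC and a digit. The mitochondrial carriers of family SLC25 (35 genes) were left out, as were SLC26A4 and SLC30A3. This choice gave 185 of the 12948 genes in the table, of which 181 are carriers in 41 number families. The other 4 symbols name no carrier: SLC9A3R1 is a scaffold protein for exchangers, SLC2A4RG a transcription factor, SLC4A1AP an adaptor-like protein, and SLC7A6OS a gene on the opposite strand of SLC7A6. A further 3 genes with locus numbers in place of names are described in the table as solute carriers and fell outside the choice.

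The eyes came from New Zealand white rabbits, an albino laboratory breed. In operated eyes the lens had been removed (lensectomy) and an artificial intraocular lens inserted. Iris and ciliary body were sampled as 1 tissue in 5 groups: 7 unoperated and 3 operated eyes of rabbits aged 5 weeks, 3 operated eyes aged 6.5 weeks, and 7 unoperated and 6 operated eyes aged 6 months. No unoperated 6.5-week group was analysed here, so surgery and growth cannot be told apart in the 6.5-week eyes, and the labels do not say how long after surgery the tissue was taken. Operated eyes at 5 and 6.5 weeks are together called operated juvenile eyes. The library titles carry different numbers, but the labels do not say that the eyes came from different animals, so the p-values measure the spread between these libraries, which may be technical in part.

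The ciliary body secretes the aqueous humor, the clear fluid that fills the front of the eye and feeds the lens and cornea. Its paired epithelial layers do this by moving sodium, chloride and bicarbonate from blood to eye, driven by the sodium pump and helped by carbonic anhydrase, and water follows through aquaporins. The same layers carry ascorbate, glucose and amino acids into the fluid, and pump organic anions such as prostaglandins and drugs back towards the blood. Solute carriers do much of this work, beside the pump, carbonic anhydrase and aquaporins. The iris adds smooth muscle, blood vessels, stroma and pigment-type cells. Melanosomes, the granules in which such cells of pigmented breeds make melanin, hold carriers of their own.

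Levels are given as FPKM, a fragment count set against transcript length and library size, summed over the transcripts of a symbol. In groups of 6 or 7 eyes the lowest, median and highest values are given in that order, and in groups of 3 eyes each eye is given. Changes are differences in log2(FPKM + 0.5) with their standard errors, from limma fitted over all 26 libraries and all 12948 genes. A gene is said to have risen or fallen where its Benjamini-Hochberg adjusted p was under 0.05. Of the members, 168 were listed through both operated and unoperated eyes, 7 only through operated eyes and 10 only through unoperated eyes, because a transcript stands in the table where some group has all of its libraries over 1 FPKM. This listing favours members of these last 2 kinds that are higher on the side that listed them, so their direction is given as a description. Their p-values give no support for that direction, and they are included in the counts below.

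The solute carriers took between 0.898% and 1.49% of the FPKM listed in a library. Their summed level was 5560 to 6299 FPKM in unoperated 5-week eyes and 5343 to 5991 in unoperated 6-month eyes. It was 4684 to 5391 in operated 5-week eyes, 4449 to 5463 in operated 6.5-week eyes and 4528 to 5053 in operated 6-month eyes. At 6 months every operated eye lay below every unoperated eye. The highest mean over the 26 libraries was that of SLC2A1, the glucose transporter GLUT1 of barrier tissues, at 971 FPKM. It was followed by the ascorbate transporter SLC23A2 at 302, the sodium bicarbonate cotransporter SLC4A5 at 228, the melanosomal exchanger SLC24A5 at 148 and the dicarboxylate transporter SLC13A3 at 137 FPKM. The median member had a mean of 11.9 FPKM.

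The tissue label was checked against marker genes. For comparison, 16% of all genes rose and 30.1% fell after surgery at 6 months, and 16.5% rose and 20.8% fell in juveniles. Of 16 listed genes of ciliary epithelium 13 were measured, with summed levels of 3122 to 5513 FPKM in unoperated eyes and 1290 to 2611 FPKM in operated eyes. After surgery 10 of the 13 fell at each age, while AQP1 rose at both. All 10 pigment-cell genes were measured, and 8 fell at 6 months and 7 in juveniles. GPNMB of this list had a higher mean in operated eyes, 551 against 381 FPKM at 6 months and 499 against 270 FPKM in juveniles. All 9 measured macrophage genes rose at both ages, and their sum was 57.6 to 203 FPKM in unoperated and 264 to 741 FPKM in operated eyes, with no overlap. Endothelial genes rose in 7 of 10 cases at each age and fell in 1, and all 3 neutrophil genes rose at both. Iris smooth muscle genes fell in 7 of 9 cases at 6 months and in 6 in juveniles, where 1 rose. Cell cycle genes rose in 10 of 10 cases at 6 months and in 8 in juveniles, and T cell genes in 0 of 4 and 3 of 4. The listing rule given above holds for markers too. Means of CD209 (macrophage), MMP9 (neutrophil), BUB1 and AURKB (cell cycle) were under 1 FPKM in unoperated eyes of both ages. These genes were therefore listed through operated eyes, and their direction is a description only. None of the 5 lens, 2 photoreceptor, 5 retinal pigment epithelium, 3 corneal epithelium and 3 red cell genes passed in limma, and 3 of them had an unadjusted p under 0.05 at each age. Of 7 genes of retinal neurons and Müller glia 4 fell at 6 months and 3 in juveniles, and of 6 genes of corneal stroma and endothelium 2 rose and 2 fell, and 1 rose and 2 fell. Lens crystallin RNA varied widely between libraries of the same group, and its sum reached 37656 FPKM in 1 unoperated 5-week eye. No measured marker was at 0 in every library of a group, but many listed markers were not in the table. Measured were 5 of 13 lens, 2 of 14 photoreceptor and 3 of 8 corneal epithelium genes. For red cell and for neutrophil genes it was 3 of 10 each. These are whole-tissue libraries, in which fewer cells of a type and less RNA per cell cannot be told apart, and the part of any cell type in the results below was not tested except where a value is given.

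More solute carriers fell than rose after surgery. At 6 months 32 of 185 were higher in operated eyes and 74 were lower. These are 17.3% and 40% of the members, and among all genes the shares were 16% higher and 30.1% lower. The median change of the members was -0.17, against -0.11 for all genes, on the log2 scale. In juveniles 25 members were higher and 67 lower, against 16.5% and 20.8% of all genes, and the medians were -0.14 and -0.06. The unoperated and operated libraries at 6 months and in juveniles are separate sets of eyes. In them 21 members were higher at both ages, 58 were lower at both, and 0 passed in opposite directions. These are 11.4% and 31.4% of the members, against 11.9% and 16.6% of all genes higher and lower at both ages. There were 27 members that passed only at 6 months and 13 only in juveniles. Of all 12948 genes 2270 passed only at 6 months, 1136 only in juveniles and 13 in opposite directions. Few changes were large: at 6 months 13 members fell and 1 rose by 2-fold or more, and in juveniles 12 fell and 5 rose. The shares of all genes at 2-fold are not given here. The 1 rise at 6 months was that of SLC26A10, and SLC26A10 and SLC7A7 were among those in juveniles. Both were listed only through operated eyes. Among the falls, SLC24A4 at 6 months and SLC16A12 in juveniles were listed only through unoperated eyes. These large changes are therefore a description only.

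The balance at 6 months depended on how libraries were scaled. It was 18 higher and 87 lower with each library scaled to an equal FPKM sum, and 48 higher and 62 lower with median-ratio scaling, and equal sums moved the median change of all genes from -0.11 to -0.24. With the mean macrophage marker level as a covariate, an alternative chosen after seeing the data, 3 members remained higher and 5 lower at 6 months, and 1 higher and 2 lower in juveniles. Because the marker sums of operated and unoperated eyes do not overlap, that level and surgery cannot be told apart in this design. A call kept or lost with this covariate therefore decides nothing about the part of macrophages. With it 13 of the 106 calls at 6 months and 21 of the 92 in juveniles turned sign, and 0 of these passed with the turned sign. The median standard error of the members rose from 0.13 to 0.27 at 6 months with the covariate.

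**Figure D1:**
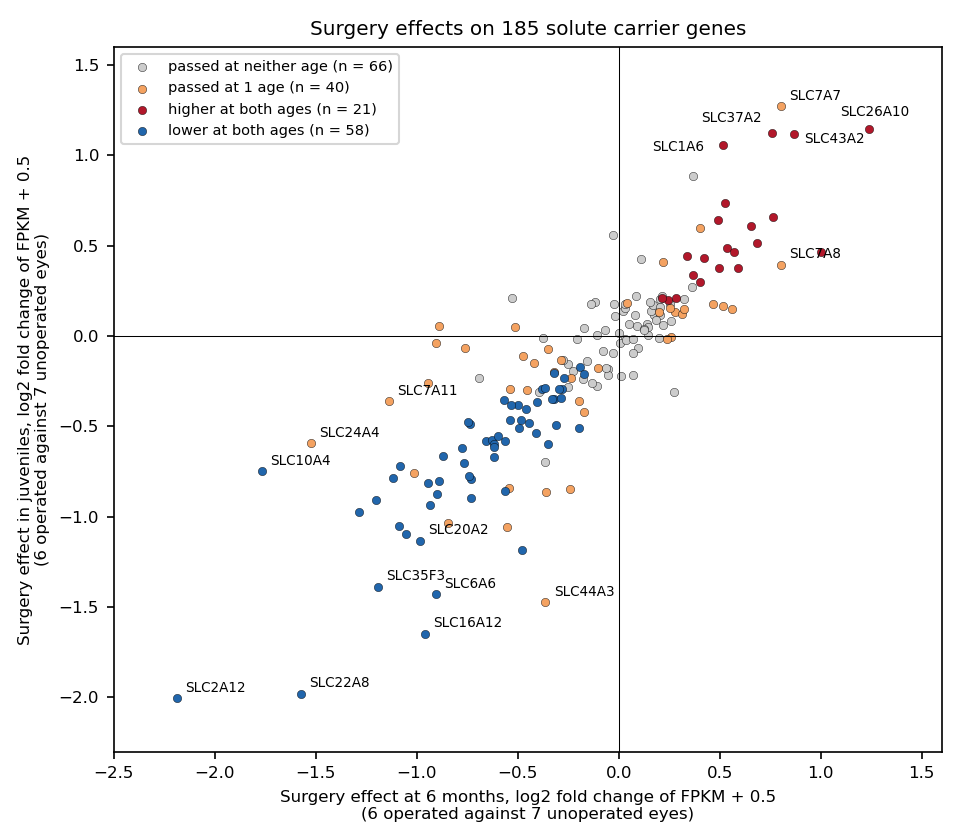
Each point is 1 of the 185 solute carrier genes, placed by its log2 change of FPKM + 0.5 with surgery at 6 months (horizontal, 6 operated against 7 unoperated eyes) and in juveniles (vertical, 6 operated against 7 unoperated eyes). The 58 genes lower at both ages lie in the lower left, led by SLC2A12 and SLC22A8, and the 21 genes higher at both ages lie in the upper right.

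Substrate classes were set by number family, so single members of a class can carry something else. SLC5A6, a carrier of vitamins, is counted with the sugar carriers. By this grouping, falls outnumbered rises in most classes. Amino acid and peptide carriers, the class with most members, had 7 of 42 higher and 18 lower at 6 months, and 6 higher and 18 lower in juveniles. All 3 of the 6 vitamin and cofactor carriers that passed fell, at each age. Bicarbonate and chloride carriers were balanced, with 4 of 17 higher and 4 lower at 6 months and 3 of each in juveniles. Sodium, proton and calcium exchangers had 8 of 15 lower at 6 months and 3 in juveniles. Of all genes 16% were higher and 30.1% lower at 6 months, and 16.5% higher and 20.8% lower in juveniles. The class and family counts here and below stand beside these shares, and a count near them sets no group apart. Some single families moved in 1 direction: 7 of 8 members of the neurotransmitter and amino acid family SLC6 fell at each age and 0 rose, while in the cation chloride family SLC12 3 of 5 rose at 6 months and 2 in juveniles, and 0 fell.

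**Figure D2:**
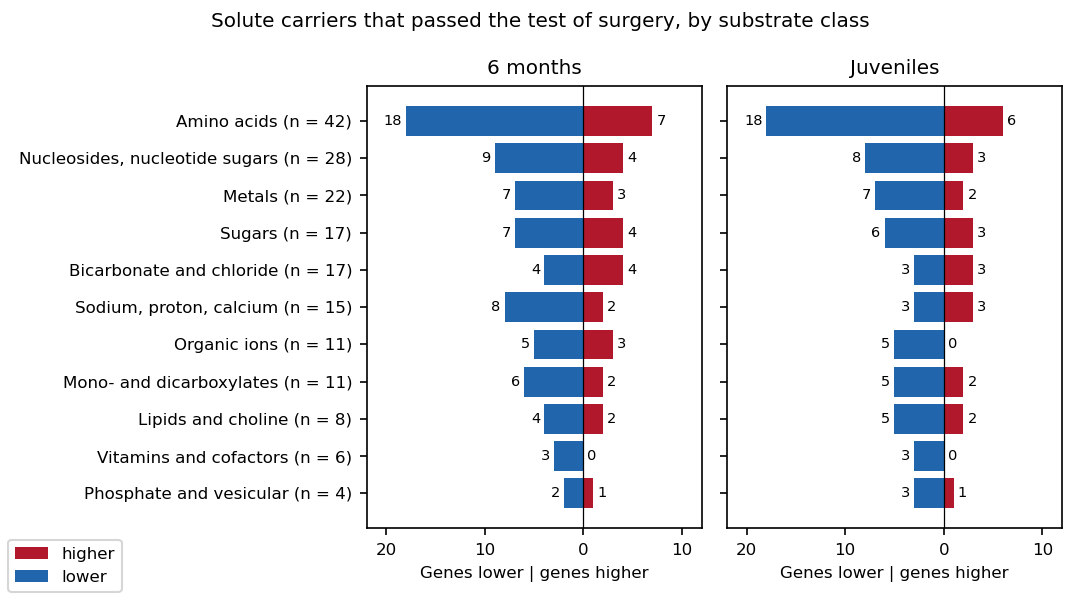
Bars count the solute carriers that passed the test of surgery in each substrate class, lower in operated eyes to the left and higher to the right, at 6 months and in juveniles. The n beside a class name counts its measured members, and the class with most members, the amino acid carriers, had 18 lower at each age. Classes were set by number family.

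The largest fall was that of SLC2A12, the facilitative hexose transporter GLUT12. In unoperated eyes it lay at 83.9, 115 and 128 FPKM at 5 weeks and at 152, 161 and 194 FPKM at 6 months. Operated eyes had 25.97, 27.2 and 22.7 FPKM at 5 weeks, 27.9, 31.6 and 27.9 FPKM at 6.5 weeks, and 25.8, 37.6 and 48.8 FPKM at 6 months. Every operated eye was therefore below every unoperated eye. The change was -2.19 ± 0.13 at 6 months (4.56-fold lower, adjusted p = 1.72e-12) and -2.00 ± 0.13 in juveniles (4.01-fold lower, adjusted p = 9.31e-12). These calls held under every alternative tried. Among these was the macrophage covariate, which this design cannot separate from surgery.

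SLC22A8, the organic anion transporter OAT3 that takes up drugs, urate and prostaglandins in exchange for dicarboxylates, fell almost as far. It measured 132, 171 and 198 FPKM in unoperated 5-week eyes and 156, 166 and 199 FPKM in unoperated 6-month eyes. It measured 43.4, 44.5 and 32.6 FPKM in operated 5-week eyes, 34.8, 39.9 and 62.9 FPKM in operated 6.5-week eyes and 36.9, 56.2 and 96.2 FPKM in operated 6-month eyes. The groups did not overlap at either age. The change was -1.57 ± 0.16 at 6 months (adjusted p = 3.64e-08) and -1.98 ± 0.16 in juveniles (adjusted p = 1.07e-09), and it also held under every alternative.

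Other organic ion carriers of family SLC22 divided. SLC22A17, a receptor for the iron carrier lipocalin, fell from 90.6 ± 7.04 to 58.9 ± 4.66 FPKM at 6 months (SD, n = 7 and 6). Its change was -0.62 ± 0.08 at 6 months and -0.61 ± 0.08 in juveniles, without overlap between the libraries at either age. SLC22A6, the related anion transporter OAT1, had 34.1, 59.3 and 70.7 FPKM in unoperated and 28.7, 34.2 and 41.6 FPKM in operated 6-month eyes. The libraries overlapped, and the change of -0.69 ± 0.43 did not pass (adjusted p = 0.199). SLC22A3, a low-affinity monoamine and organic cation transporter, was among the 2 members of its family that rose at 6 months, from 0.66 to 1.21 FPKM in the mean (change 0.52 ± 0.14). In the whole family 2 of 8 rose and 4 fell at 6 months, and 0 rose and 4 fell in juveniles.

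SLC10A4, an orphan relative of the bile acid transporters found in synaptic vesicles of cholinergic and monoaminergic nerves, was at 7.72, 15.0 and 21.2 FPKM in unoperated 6-month eyes. In operated 6-month eyes it was at 2.15, 3.77 and 7.63 FPKM, below all of them, and the change was -1.77 ± 0.23 (adjusted p = 1.32e-06). Unoperated 5-week eyes already had low values of 2.68, 3.75 and 5.67 FPKM, and operated juvenile eyes lay still lower, between 1.43 and 2.63 FPKM (change -0.75 ± 0.23, adjusted p = 0.0133).

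**Figure D3:**
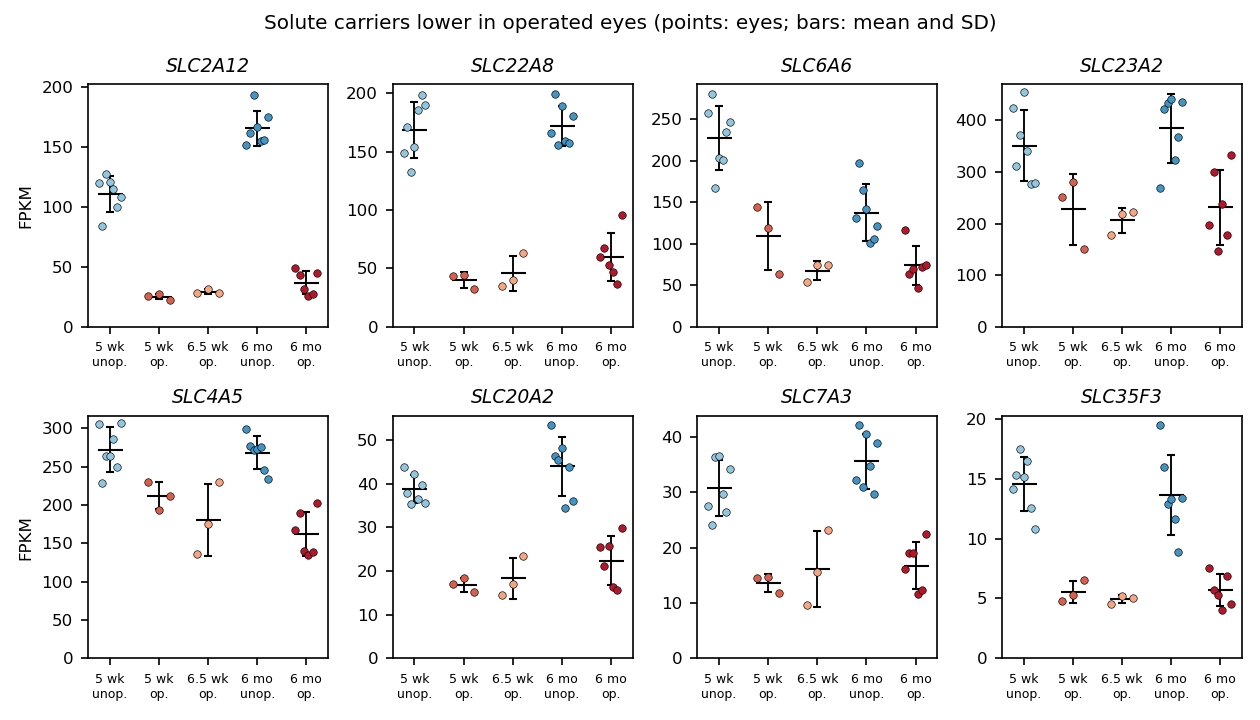
Points are FPKM of single eyes in the 5 groups for 8 solute carriers that fell after surgery, with horizontal bars for the mean and vertical bars for the SD. SLC2A12 and SLC22A8 show no overlap between operated and unoperated eyes, while single operated eyes of SLC23A2 and SLC4A5 reach into the unoperated range.

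Among the carriers that serve fluid secretion, several of the bicarbonate family SLC4 fell, and none of the chloride family SLC12 did. SLC4A5, an electrogenic sodium bicarbonate cotransporter, had 228, 265 and 307 FPKM in unoperated 5-week eyes and 234, 273 and 299 FPKM in unoperated 6-month eyes. Operated eyes had 230, 194 and 212 FPKM at 5 weeks, 136, 175 and 229 FPKM at 6.5 weeks and 135, 154 and 202 FPKM at 6 months. At 6 months all operated eyes were below the unoperated ones (change -0.74 ± 0.11, adjusted p = 7.68e-06), and in juveniles the ranges overlapped slightly (change -0.49 ± 0.11, adjusted p = 0.00104).

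The other members of the family pointed the same way or did not pass. SLC4A4, the sodium bicarbonate cotransporter NBCe1, fell from 44.2 ± 6.46 to 25.8 ± 12.5 FPKM at 6 months (change -0.87 ± 0.19), with 1 operated eye at 47.2 FPKM inside the unoperated range. In juveniles its change was -0.66 ± 0.19 and the groups did not overlap. SLC4A2, the chloride bicarbonate exchanger AE2, fell from 71.3 ± 3.41 to 50.2 ± 2.07 FPKM at 6 months, without overlap (change -0.50 ± 0.06, adjusted p = 6.79e-07). Its juvenile change was -0.38 ± 0.06 (adjusted p = 3.1e-05). SLC4A9 fell at 6 months, from 3.74 ± 0.77 to 2.46 ± 0.48 FPKM (change -0.51 ± 0.12). Of the 8 members of SLC4, 4 fell at 6 months, 3 fell in juveniles and 0 rose.

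SLC12A2, the sodium potassium chloride cotransporter NKCC1 that loads the epithelium with chloride, had 31.8, 36.6 and 45.0 FPKM in unoperated and 23.4, 32.2 and 37.2 FPKM in operated 6-month eyes. The libraries overlapped, and the change of -0.25 ± 0.16 did not pass (adjusted p = 0.198). The potassium chloride cotransporter SLC12A4 (KCC1) had means of 32.9 and 33.6 FPKM in unoperated and operated 6-month eyes and did not pass at either age. SLC12A9, a relative of this family in endosomes and lysosomes, rose from 12.7 ± 1.26 to 16.2 ± 1.84 FPKM at 6 months (change 0.34 ± 0.08) and from 13.8 ± 1.55 FPKM to between 16.8 and 20.5 FPKM in juveniles (change 0.44 ± 0.08).

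SLC26A10, a low-level member of the anion exchanger family, had the largest rise at 6 months. It lay at 0.88, 1.41 and 1.74 FPKM in unoperated and 2.97, 3.75 and 4.96 FPKM in operated 6-month eyes, without overlap (change 1.24 ± 0.18, adjusted p = 6.9e-06). In juveniles it was at 0.95, 1.86 and 2.54 FPKM in unoperated eyes, 4.48, 4.61 and 2.46 FPKM in operated 5-week eyes and 4.62, 6.38 and 5.69 FPKM in operated 6.5-week eyes (change 1.15 ± 0.18). It is 1 of the 7 members listed only through operated eyes, so its rank and its p-values are a description only.

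Proton and cation exchangers changed in both directions. In the sodium proton exchanger family SLC9, 2 of 8 members rose and 4 fell at 6 months, and 2 rose and 2 fell in juveniles. SLC9A9, an endosomal exchanger, was at 5.02, 6.28 and 7.85 FPKM in unoperated and 9.52, 11.2 and 13.8 FPKM in operated 6-month eyes, without overlap (change 0.76 ± 0.13). In juveniles it was at 4.92, 5.92 and 9.45 FPKM in unoperated eyes, 9.04, 10.35 and 12.4 FPKM in operated 5-week eyes and 10.85, 9.96 and 10.4 FPKM in operated 6.5-week eyes. The juvenile ranges overlapped, and the change was 0.66 ± 0.13.

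Potassium-dependent sodium calcium exchangers of family SLC24 fell at 6 months in 4 of 5 cases, and in juveniles in 1 case. SLC24A4 was at 1.33, 1.63 and 2.78 FPKM in unoperated and 0, 0.31 and 1.17 FPKM in operated 6-month eyes (change -1.52 ± 0.31, adjusted p = 0.000368). SLC24A2 went from 1.76 ± 0.18 to 0.85 ± 0.29 FPKM at 6 months (change -0.76 ± 0.17). Both genes were listed only through unoperated eyes, so their falls are a description only. The plasma membrane exchanger SLC8A1 had means of 6.45 and 5.87 FPKM in unoperated and operated 6-month eyes and did not pass, nor did it pass in juveniles.

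The carriers of melanosomes fell, as did most of the pigment-cell genes. The breed is albino, and these values are levels of RNA and not of melanin. SLC45A2, which sets the acidity of melanosomes and underlies a form of albinism, was at 27.5, 34.6 and 38.1 FPKM in unoperated and 12.9, 15.1 and 19.4 FPKM in operated 6-month eyes (change -1.08 ± 0.10, adjusted p = 7.45e-09). In juveniles it was at 25.0, 28.5 and 34.3 FPKM in unoperated eyes, 13.4, 17.2 and 14.1 FPKM in operated 5-week eyes and 17.9, 21.7 and 24.9 FPKM in operated 6.5-week eyes (change -0.72 ± 0.10). Neither comparison overlapped. SLC24A5, the exchanger of melanosomes known from skin colour, fell less, from 160 ± 13.1 to 120 ± 10.5 FPKM at 6 months (change -0.41 ± 0.10) and by 0.54 ± 0.10 in juveniles. Pigment-cell markers summed to 2602 to 3062 FPKM in unoperated and 1864 to 2465 FPKM in operated 6-month eyes, and their part in these falls was not tested.

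Vitamin carriers were led by SLC23A2, the sodium ascorbate transporter SVCT2 that concentrates vitamin C in ocular cells. Unoperated eyes had 277, 341 and 454 FPKM at 5 weeks and 269, 423 and 442 FPKM at 6 months. Operated eyes had 252, 280 and 150 FPKM at 5 weeks, 178, 219 and 223 FPKM at 6.5 weeks and 146, 217 and 333 FPKM at 6 months. Single eyes overlapped at both ages, and the fall passed at both, by 0.77 ± 0.18 at 6 months (adjusted p = 0.00129) and 0.70 ± 0.18 in juveniles (adjusted p = 0.00357). SLC19A2, a thiamine transporter, fell from 6.98 ± 1.16 to 3.09 ± 1.35 FPKM at 6 months (change -1.12 ± 0.29). In juveniles its change of -0.79 ± 0.29 (adjusted p = 0.0346) was lost without any 1 of 8 libraries: unoperated 5-week replicates 3, 4, 5, 6 and 7, operated 5-week replicate 1, and operated 6.5-week replicates 1 and 3 (adjusted p of 0.0523 to 0.142).

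SLC19A1, the reduced folate carrier, fell at both ages, in juveniles by 0.49 ± 0.12 (adjusted p = 0.00165). The proton-coupled folate transporter SLC46A1 and the heme carrier SLC48A1 did not pass at either age, with means of 9.3 and 9.91 FPKM, and 20.4 and 18.1 FPKM, in unoperated and operated 6-month eyes.

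Sugar carriers did not move as a block. SLC2A1 had 774, 833 and 944 FPKM in unoperated and 853, 967 and 1064 FPKM in operated 6-month eyes. In juveniles it had 886, 984 and 1166 FPKM in unoperated eyes, 1216, 1089 and 992 FPKM in operated 5-week eyes and 979, 971 and 1282 FPKM in operated 6.5-week eyes. The ranges overlapped, and neither the 6-month change of 0.17 ± 0.08 (adjusted p = 0.079) nor the juvenile change of 0.12 ± 0.08 (adjusted p = 0.266) passed. With equal FPKM sums the juvenile change of SLC2A1 was -0.01.

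SLC2A10, a hexose and dehydroascorbate carrier of inner membranes, rose at 6 months from 17.6 ± 1.78 to 26.2 ± 3.21 FPKM (change 0.56 ± 0.09), without overlap, and in juveniles its change of 0.15 ± 0.09 did not pass. SLC37A2, a sugar phosphate exchanger known from macrophages, was at 2.18, 3.28 and 4.32 FPKM in unoperated and 4.43, 5.72 and 7.74 FPKM in operated 6-month eyes (change 0.76 ± 0.17). Its juvenile rise was 1.13 ± 0.17, and all operated juvenile eyes lay above the unoperated ones. SLC45A4 rose by 0.65 ± 0.12 and 0.61 ± 0.12, and SLC50A1, the animal relative of the SWEET sugar transporters, by 0.50 ± 0.11 and 0.38 ± 0.11, at 6 months and in juveniles.

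The sodium-coupled family SLC5 fell in part. SLC5A3, the myo-inositol transporter that cells use against osmotic stress, was at 18.7, 23.4 and 27.7 FPKM in unoperated and 7.39, 10.6 and 22.1 FPKM in operated 6-month eyes (change -0.95 ± 0.25, adjusted p = 0.0033). It did not pass in juveniles, where 1 operated 6.5-week eye had 5.64 FPKM and the other 5 operated eyes 13.9 to 21.5 FPKM. SLC5A6, which carries biotin, pantothenate and lipoate, fell by 0.49 ± 0.13 at 6 months and 0.51 ± 0.13 in juveniles.

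Family SLC6 carries amino acids, transmitters and creatine, and 6 of its 8 members were lower at both ages. SLC6A6, the taurine transporter TauT, was at 168, 234 and 280 FPKM in unoperated 5-week eyes, 145, 119 and 64.1 FPKM in operated 5-week eyes and 54.2, 74.3 and 73.9 FPKM in operated 6.5-week eyes. All 6 operated juvenile eyes were below the unoperated ones (change -1.43 ± 0.19, adjusted p = 3.07e-06). At 6 months it was at 101, 131 and 197 FPKM in unoperated and 47.0, 70.5 and 117 FPKM in operated eyes, with 1 operated eye inside the unoperated range (change -0.91 ± 0.19, adjusted p = 0.000544).

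SLC6A9, the glycine transporter GlyT1, fell from 125 ± 16.2 FPKM in unoperated 5-week eyes to between 51.0 and 89.9 FPKM in operated juvenile eyes (change -0.86 ± 0.15), and by 0.56 ± 0.15 at 6 months. With the most abundant transcript of SLC6A9 alone the 6-month fall did not pass. SLC6A20, a proline and imino acid transporter, was at 9.31, 11.9 and 19.2 FPKM in unoperated and 3.65, 5.08 and 8.79 FPKM in operated 6-month eyes (change -1.20 ± 0.21, adjusted p = 6.47e-05), without overlap. Its juvenile change was -0.91 ± 0.21. SLC6A13, the GABA and taurine transporter GAT2, fell by 0.38 ± 0.09 at 6 months. Its fall also passed with the macrophage covariate, which this design cannot separate from surgery. In juveniles SLC6A13 fell by 0.29 ± 0.09, a call that was lost without operated 6.5-week replicate 1 (adjusted p = 0.0627). SLC6A15, a carrier of branched-chain amino acids and proline, fell by 0.63 ± 0.17 and 0.58 ± 0.17.

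The creatine transporter SLC6A8 fell at 6 months, from 47.4 ± 5.33 to 34.1 ± 4.92 FPKM (change -0.47 ± 0.11), and did not pass in juveniles.

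In family SLC7, which holds cationic carriers and the light chains of amino acid exchangers, 1 of 9 members rose and 4 fell at each age. SLC7A3, a cationic carrier, was at 29.7, 34.7 and 42.1 FPKM in unoperated and 11.6, 17.5 and 22.5 FPKM in operated 6-month eyes (change -1.09 ± 0.16, adjusted p = 9.46e-06). In juveniles it was at 24.0, 29.8 and 36.5 FPKM in unoperated eyes, 14.5, 14.6 and 11.7 FPKM in operated 5-week eyes and 9.65, 15.5 and 23.3 FPKM in operated 6.5-week eyes (change -1.05 ± 0.16). Neither age overlapped. SLC7A2, which supplies arginine, fell by 0.90 ± 0.20 and 0.88 ± 0.20. SLC3A1, a heavy chain that brings amino acid exchangers to the cell surface and is known from kidney cystine transport, fell by 0.66 ± 0.12 and 0.58 ± 0.12.

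SLC7A8, the neutral amino acid and thyroid hormone exchanger LAT2, moved the other way. It was at 63.4, 75.1 and 90.6 FPKM in unoperated and 95.2, 136 and 182 FPKM in operated 6-month eyes, without overlap (change 0.80 ± 0.16, adjusted p = 0.000344). The rise also passed with the macrophage covariate, which this design cannot separate from surgery. In juveniles the change of 0.40 ± 0.16 did not pass (adjusted p = 0.0614), and the ranges of 59.8 to 112 FPKM in unoperated and 94.4 to 152 FPKM in operated eyes overlapped. Its heavy chain SLC3A2 (CD98) rose at 6 months from 104 ± 10.2 to 126 ± 15 FPKM (change 0.28 ± 0.10, adjusted p = 0.0209), a call lost without operated 6-month replicate 3 (adjusted p = 0.0612). SLC7A5, the light chain LAT1, had means of 41.8 and 40.8 FPKM in unoperated and operated 6-month eyes and did not pass at either age.

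SLC7A11, the cystine glutamate exchanger xCT that supplies glutathione synthesis, was at 17.3, 21.3 and 26.8 FPKM in unoperated and 6.27, 9.52 and 11.7 FPKM in operated 6-month eyes, without overlap. The change was -1.14 ± 0.40 (adjusted p = 0.023) and was lost without operated 6-month replicate 4 (adjusted p = 0.0569). In juveniles the values overlapped, at 2.08, 7.77 and 13.4 FPKM in unoperated eyes, 5.18, 6.65 and 7.27 FPKM in operated 5-week eyes and 6.81, 8.05 and 0.6 FPKM in operated 6.5-week eyes, and the gene did not pass.

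Other amino acid and peptide carriers also changed in both directions. SLC15A2, the peptide transporter PEPT2, was at 30.1, 45.0 and 47.9 FPKM in unoperated 5-week eyes and between 11.99 and 21.99 FPKM in all operated juvenile eyes (change -1.18 ± 0.19, adjusted p = 2.27e-05). SLC15A2 also fell at 6 months. SLC38A8, a glutamine transporter known from foveal development, fell from 46.3 ± 4.84 to 25.1 ± 5.72 FPKM at 6 months (change -0.89 ± 0.13) and by 0.80 ± 0.13 in juveniles. SLC36A4, a high-affinity proline and tryptophan carrier, fell by 0.75 ± 0.13 and 0.47 ± 0.13.

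In family SLC43, named for carriers of large neutral amino acids, 2 of 3 members rose at both ages, and SLC43A1 passed at neither. SLC43A2 (LAT4) was at 2.56, 3.58 and 4.44 FPKM in unoperated and 5.84, 6.44 and 9.56 FPKM in operated 6-month eyes (change 0.87 ± 0.15, adjusted p = 4.38e-05). In juveniles unoperated eyes had 1.79, 2.46 and 2.82 FPKM, and operated eyes had 4.99, 5.44 and 9.49 FPKM at 5 weeks and 4.4, 4.89 and 6.41 FPKM at 6.5 weeks (change 1.12 ± 0.15, adjusted p = 1.91e-06). Neither age overlapped. SLC43A3, which carries purine bases despite its family, rose by 0.57 ± 0.13 and 0.46 ± 0.13. SLC15A3, a peptide and histidine transporter of immune-cell lysosomes, rose in juveniles by 0.60 ± 0.17, and its 6-month change of 0.40 ± 0.17 did not pass (adjusted p = 0.0527). SLC7A7, a cationic and neutral amino acid exchanger of macrophages and epithelia, rose in juveniles by 1.27 ± 0.37 (adjusted p = 0.00857) and had a change of 0.80 ± 0.37 at 6 months (adjusted p = 0.0791). It was listed only through operated eyes, so its rise is a description only. The macrophage marker sums given above were also higher in operated eyes, and their part in these rises was not tested.

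**Figure D4:**
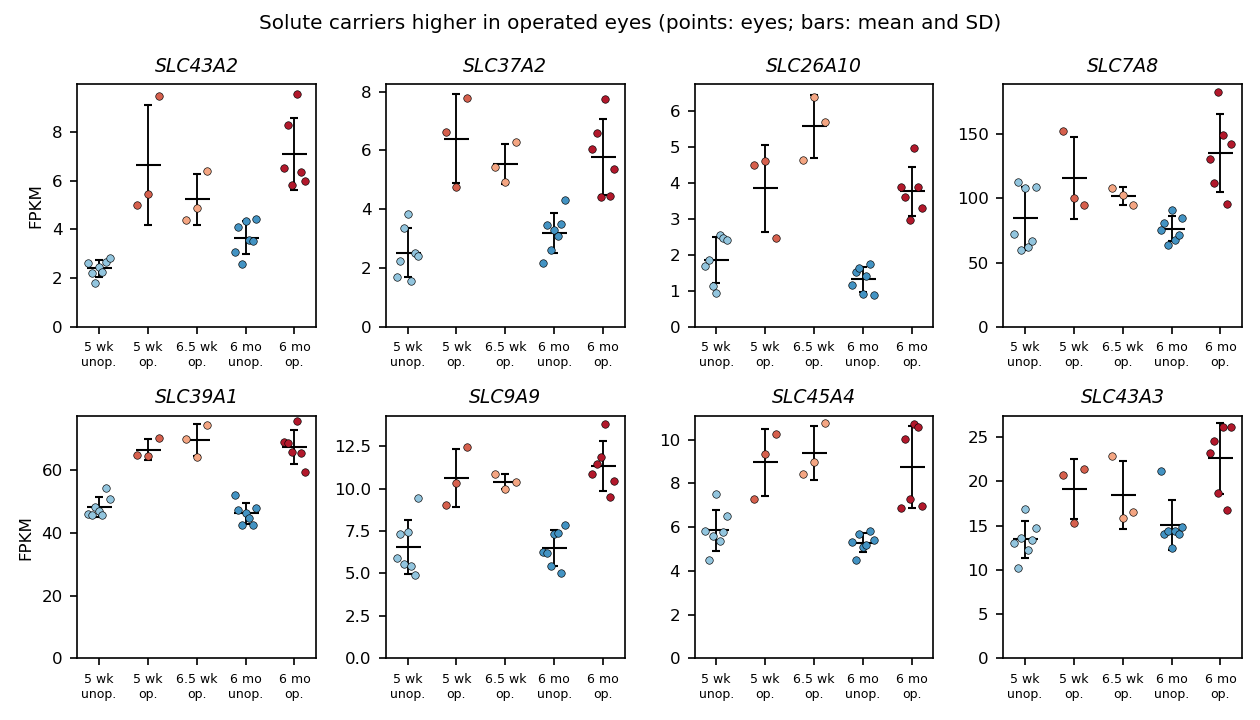
Points are FPKM of single eyes in the 5 groups for 8 solute carriers that were higher in operated eyes, with horizontal bars for the mean and vertical bars for the SD. The rise of SLC7A8 passed at 6 months only, and the ranges of SLC43A2 do not overlap at either age.

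In the monocarboxylate family SLC16, 5 of 9 members fell and 2 rose at 6 months, and 4 fell and 2 rose in juveniles. SLC16A1, the lactate transporter MCT1, had means of 41.1 and 44.8 FPKM in unoperated and operated 6-month eyes and did not pass at either age. SLC16A12, a creatine transporter linked to cataract, was at 2.28, 2.55 and 3.7 FPKM in unoperated 5-week eyes, 0.88, 0.75 and 0.36 FPKM in operated 5-week eyes and 0.45, 0.52 and 0.43 FPKM in operated 6.5-week eyes (change -1.65 ± 0.17, adjusted p = 4.97e-08). At 6 months it fell by 0.96 ± 0.17. It was listed only through unoperated eyes, so its fall is a description only. SLC16A6, which exports ketone bodies from liver, fell by 1.06 ± 0.25 and 1.09 ± 0.25, and SLC16A9, a carnitine and urate carrier, by 0.73 ± 0.10 and 0.79 ± 0.10. SLC13A3 had means of 124 and 149 FPKM in unoperated and operated 6-month eyes and did not pass.

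Phosphate carriers divided by gene. SLC20A2 (PiT2), which is linked to brain calcification when lost, was at 34.5, 45.4 and 53.6 FPKM in unoperated and 15.7, 23.3 and 29.8 FPKM in operated 6-month eyes (change -0.99 ± 0.13, adjusted p = 2.36e-06). In juveniles it was at 35.5, 38.0 and 43.8 FPKM in unoperated eyes, 17.0, 18.5 and 15.2 FPKM in operated 5-week eyes and 14.4, 17.1 and 23.5 FPKM in operated 6.5-week eyes (change -1.13 ± 0.13, adjusted p = 3.91e-07). Every operated eye was below every unoperated eye of its comparison. Its relative SLC20A1 (PiT1) rose, by 0.40 ± 0.09 at 6 months and 0.30 ± 0.09 in juveniles, from 13.9 ± 1.82 to 18.6 ± 2.76 FPKM at 6 months. The juvenile rise of SLC20A1 did not pass with equal FPKM sums.

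In the zinc exporter family SLC30 4 of 6 members were lower at each age and 0 higher. In the importer family SLC39 2 of 9 were lower and 1 higher at each age, where 30.1% of all genes were lower at 6 months and 20.8% in juveniles. SLC30A1, the zinc exporter of the cell surface, fell from 15.9 ± 0.97 to 9.26 ± 1.96 FPKM at 6 months (change -0.77 ± 0.11, adjusted p = 6.02e-06) and by 0.62 ± 0.11 in juveniles, without overlap at either age. SLC30A6, a partner of the Golgi zinc transporter, fell by 0.30 ± 0.05 and 0.29 ± 0.05, also without overlap. The riser among the importers, SLC39A1 (ZIP1), was at 42.5, 46.4 and 52.1 FPKM in unoperated and 59.2, 67.2 and 75.6 FPKM in operated 6-month eyes (change 0.54 ± 0.06, adjusted p = 1.27e-07). Juvenile operated eyes had 64.8, 64.4 and 70.3 FPKM at 5 weeks and 70.0, 64.1 and 74.3 FPKM at 6.5 weeks, above the 45.7 to 54.4 FPKM of unoperated eyes (change 0.49 ± 0.06). SLC39A10 fell, by 0.60 ± 0.13 and 0.55 ± 0.13.

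SLC11A2, the iron and manganese importer DMT1, was higher after surgery at both ages, with overlap. It was at 5.88, 7.7 and 9.7 FPKM in unoperated and 8.59, 10.5 and 12.1 FPKM in operated 6-month eyes, and the change of 0.42 ± 0.15 (adjusted p = 0.0209) was lost without unoperated 6-month replicate 1 (adjusted p = 0.0507) and with equal FPKM sums. In juveniles it was at 7.36, 7.9 and 8.79 FPKM in unoperated eyes, 8.49, 9.5 and 16.2 FPKM in operated 5-week eyes and 13.2, 14.6 and 6.87 FPKM in operated 6.5-week eyes. The juvenile change of 0.43 ± 0.15 (adjusted p = 0.0227) was lost with equal FPKM sums, with only the groups compared in the fit, and without operated 5-week replicate 3 or operated 6.5-week replicate 1 or 2 (adjusted p of 0.0673 to 0.101).

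SLC41A1, which exports magnesium, fell in juveniles from 108 ± 9.64 FPKM to between 65.5 and 87.1 FPKM, without overlap (change -0.51 ± 0.08, adjusted p = 1.37e-05). At 6 months it fell from 99.3 to 86.8 FPKM in the mean, with overlap (change -0.20 ± 0.08, adjusted p = 0.0404), a call lost without any 1 of 9 libraries, unoperated 6-month replicates 1, 2, 3, 5 and 6 and operated 6-month replicates 1, 2, 3 and 5 (adjusted p of 0.0531 to 0.0987), and with median-ratio or upper-quartile scaling or with lens and photoreceptor covariates. The difference between the ages did not pass (interaction, adjusted p = 0.205). The iron exporter SLC40A1 (ferroportin) had means of 17.8 and 16.2 FPKM in unoperated and operated 6-month eyes, and the copper importer SLC31A1 had 14.9 and 15.0 FPKM. Neither passed at either age.

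Among the 24 nucleotide sugar and related carriers of family SLC35, 4 rose and 8 fell at 6 months, and 3 rose and 7 fell in juveniles. The shares of all genes were 16% higher and 30.1% lower at 6 months, and 16.5% and 20.8% in juveniles. The largest changes were in subfamilies F and G, whose substrates are mostly unsettled. SLC35F3 was at 8.86, 13.3 and 19.5 FPKM in unoperated and 4.07, 5.51 and 7.58 FPKM in operated 6-month eyes (change -1.19 ± 0.15, adjusted p = 6.38e-07). In juveniles unoperated eyes had 10.8, 15.2 and 17.5 FPKM, and operated eyes had 4.78, 5.25 and 6.53 FPKM at 5 weeks and 4.56, 5.21 and 5.08 FPKM at 6.5 weeks (change -1.39 ± 0.15). SLC35F2 fell by 0.93 ± 0.10 and 0.94 ± 0.10, and SLC35G1 by 0.74 ± 0.11 and 0.78 ± 0.11, all without overlap. SLC35D2, a Golgi carrier of nucleotide sugars, rose by 0.69 ± 0.17 at 6 months. SLC33A1, which brings acetyl-CoA into the endoplasmic reticulum, fell by 0.32 ± 0.09 and 0.35 ± 0.09. The nucleoside transporter SLC29A1 (ENT1) had means of 48.0 and 54.2 FPKM in unoperated and operated 6-month eyes and did not pass.

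Fatty acid carriers of family SLC27 fell in 3 of 4 cases at each age. SLC27A6 went from 37.9 ± 3.45 to 25.8 ± 4.71 FPKM at 6 months (change -0.56 ± 0.12) and fell by 0.58 ± 0.12 in juveniles, without overlap at either age. SLC27A2, a very long chain acyl-CoA synthetase, fell by 0.73 ± 0.17 and 0.90 ± 0.17. In the choline transporter-like family SLC44, SLC44A2 rose by 0.28 ± 0.07 at 6 months and SLC44A1 fell by 0.32 ± 0.08. The 6-month rise of SLC44A2 did not pass with equal FPKM sums.

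Genes that work with the carriers were taken from lists. Their counts stand beside shares of all genes of 16% higher and 30.1% lower at 6 months, and 16.5% and 20.8% in juveniles. Of the 8 measured sodium pump genes 3 rose and 3 fell at 6 months, and 2 rose and 3 fell in juveniles, while their summed level went from 1184 to 1420 FPKM in unoperated eyes to 713 to 917 FPKM in operated eyes. The beta subunit ATP1B2 fell by 0.93 ± 0.15 and 0.95 ± 0.15 on the log2 scale, and the regulator FXYD5 rose by 2.59 ± 0.15 and 2.30 ± 0.15. FXYD3 of this list had means of 0.583 and 0.891 FPKM in unoperated 5-week and 6-month eyes. It was therefore listed through operated eyes, and its direction is a description only. Of 8 carbonic anhydrases 2 rose and 2 fell at 6 months and 1 rose and 2 fell in juveniles, and the membrane enzyme CA14 fell by 0.67 ± 0.16 and 1.13 ± 0.16.

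Of 4 aquaporins 3 rose and 1 fell at each age, and AQP1, the water channel of nonpigmented ciliary epithelium and of vessels, rose by 0.52 ± 0.13 and 0.77 ± 0.13. Of 16 carrier partners and regulators 1 rose and 7 fell at 6 months, and 1 rose and 4 fell in juveniles. The kinase WNK2, which controls cation chloride cotransporters, fell by 0.95 ± 0.13 and 0.75 ± 0.13. Of 5 organic anion transporters of the separate SLCO group 3 rose and 2 fell at 6 months, and 3 rose and 1 fell in juveniles. In that group the prostaglandin transporter SLCO2A1 rose by 1.46 ± 0.12 and 1.63 ± 0.12.

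Age in unoperated eyes was compared between 6 months and 5 weeks. Of the members 15 were higher and 23 lower at 6 months of age, against 11.4% and 9.46% of all genes. With equal FPKM sums the counts were 12 higher and 31 lower. Without unoperated 6-month replicate 4 the lower count was 15. Without the 8 libraries over 1000 FPKM of the lens crystallin CRYAA, 4 of which are unoperated 5-week eyes, 1 member was higher and 6 were lower. Only 3 unoperated 5-week eyes were then left, so fewer eyes and less lens RNA cannot be told apart in this count. The members named next lost their calls without these 8 lens-rich libraries unless it is said otherwise.

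The largest rise with age was that of SLC10A4, from 2.68, 3.75 and 5.67 FPKM at 5 weeks to 7.72, 15.0 and 21.2 FPKM at 6 months, without overlap (change 1.80 ± 0.22, adjusted p = 4.81e-06). This call also passed without the lens-rich libraries. SLC7A11 rose from 7.45 ± 4.21 to 20.9 ± 3.25 FPKM, without overlap (change 1.65 ± 0.38, adjusted p = 0.00367). SLC4A11, a borate transporter-like protein of corneal endothelium, had 1 unoperated 5-week eye at 5.45 FPKM and the other 6 at 0.77 to 1.37 FPKM, against 1.71, 4.31 and 6.48 FPKM at 6 months (change 1.33 ± 0.34). SLC2A12 rose by 0.58 ± 0.12, and all 6-month values were above all 5-week values.

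Amino acid carriers were lower at 6 months more often than higher, with 8 of 42 lower and 4 higher, against 9.46% and 11.4% of all genes. SLC15A2 fell from 40.8 ± 7.23 to 21.2 ± 3.56 FPKM, without overlap (change -0.93 ± 0.18, adjusted p = 0.000826). SLC7A5, whose product serves growing cells, fell from 57.1, 67.7 and 80.8 FPKM to 35.1, 42.3 and 50.3 FPKM (change -0.72 ± 0.11, adjusted p = 7.65e-05). SLC22A3 fell by 0.78 ± 0.13 (adjusted p = 0.000223). These 3 calls passed without the lens-rich libraries too. SLC16A1 fell from 62.7 ± 9.82 to 41.1 ± 3.79 FPKM, without overlap (change -0.59 ± 0.11).

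In operated eyes 9 members were higher and 14 lower at 6 months than in operated juvenile eyes, against 5.88% and 9.78% of all genes. The counts were 4 higher and 22 lower with equal FPKM sums, and 12 and 12 with median-ratio scaling. The higher count was 3 without operated 5-week replicate 3, 4 without operated 6-month replicate 1 or replicate 6, and 14 without operated 6.5-week replicate 3. SLC4A9, a bicarbonate transporter family member, was lower, at 1.94, 2.49 and 3.29 FPKM at 6 months against 4.44, 5.79 and 4.99 FPKM at 5 weeks and 5.61, 5.43 and 6.13 FPKM at 6.5 weeks (change -1.001 ± 0.12, adjusted p = 7.05e-06). SLC7A5 was lower here as well, with no overlap (change -0.65 ± 0.12, adjusted p = 0.000576). The comparison shares no library with that in unoperated eyes.

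**Figure D5:**
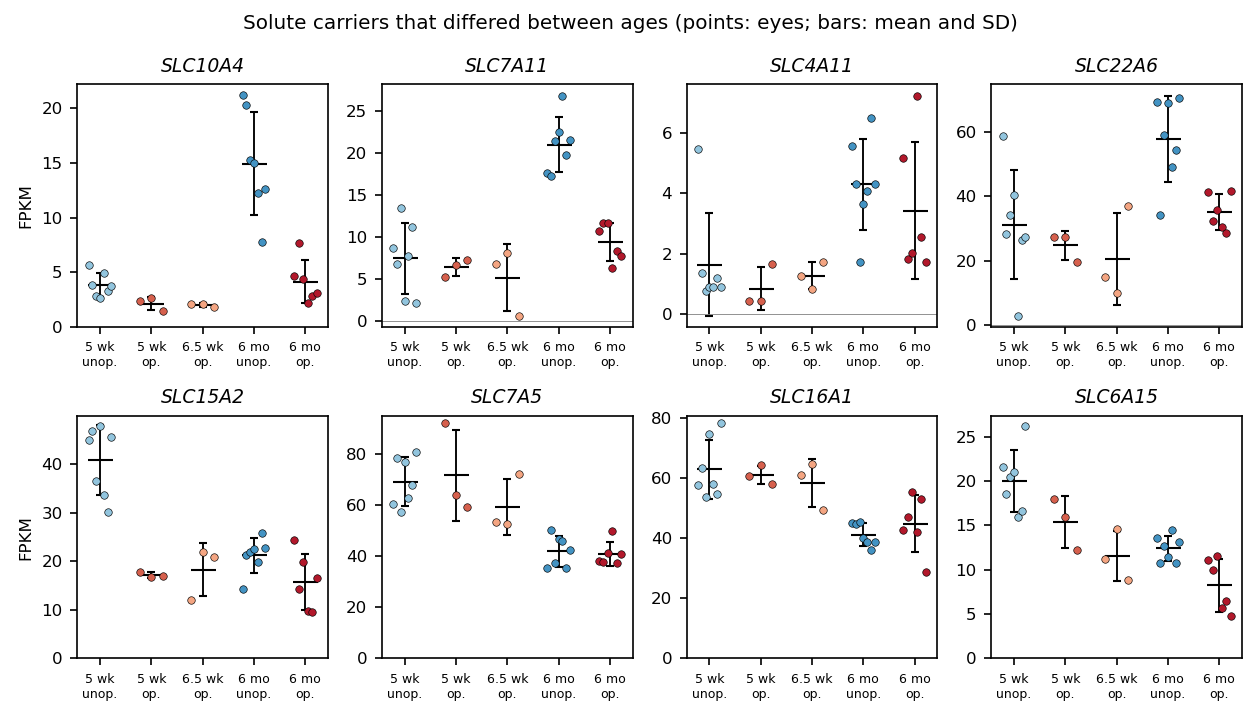
Points are FPKM of single eyes in the 5 groups for 8 solute carriers that differed between ages, with horizontal bars for the mean and vertical bars for the SD. The upper row holds genes higher in unoperated 6-month than unoperated 5-week eyes, and the lower row genes that were lower.

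The surgery effects at both ages were compared directly by an interaction. In limma the surgery effect of 1 member was higher at 6 months than in juveniles and that of 0 was lower, against 0.734% and 0.355% of all genes. At an unadjusted p under 0.05 there were 16 members, and limma without trend and robust moderation called 1 and 0. The count of 1 fell to 0 without any 1 of 8 libraries: unoperated 5-week replicates 1, 4 and 7, operated 5-week replicate 1, operated 6.5-week replicates 1 and 2, and unoperated 6-month replicates 5 and 6. It was 2 without operated 6.5-week replicate 3. No other member's surgery effect was shown to differ between ages, which includes those that passed at 1 age only.

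Operated 6.5-week and 5-week eyes did not differ in any member. The counts were 0 higher and 0 lower in limma, against 0.00772% of all genes in each direction, and 15 members had an unadjusted p under 0.05. Limma without trend and robust moderation also called 0. With 3 eyes in each group the spread was wide for several genes, and a difference may have gone undetected.

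Some of the calls named above rested on the make-up of the groups. With operated 5-week eyes alone as juveniles, 16 members were higher and 41 lower, and the juvenile calls of SLC4A4, SLC4A5, SLC6A15, SLC7A2, SLC10A4, SLC11A2, SLC16A6, SLC19A1, SLC19A2, SLC20A1, SLC36A4, SLC39A10 and SLC50A1 were lost. With operated 6.5-week eyes alone, those of SLC5A6, SLC6A13, SLC7A7, SLC11A2 and SLC33A1 were lost. Without the lens-rich libraries the juvenile calls of SLC6A13, SLC7A7, SLC10A4, SLC11A2, SLC15A3, SLC19A2 and SLC43A3 and the 6-month calls of SLC3A2, SLC11A2, SLC22A3 and SLC41A1 were lost.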

How the data were processed

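The deposited table gives FPKM per transcript for 26 iris and ciliary body libraries, and the authors' values were used without rescaling. Per the submitters' processing notes, HISAT2 2.0.4, Bowtie2 2.2.5 and RSEM 1.2.12 were among the tools, without a stated role. No source used here names the genome build. The 23 cornea samples were not analysed here. The table holds no counts, so read depth is unknown.

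FPKM of the 16725 transcripts was summed by symbol, giving 12948 genes, and 34 of the 185 members had several transcripts. All genes were fitted with limma 3.58.1 in R 4.3.3 on log2(FPKM + 0.5), with 1 mean for each of the 5 groups, trend and robust moderation, and Benjamini-Hochberg adjustment over all genes. A log2 change on this scale understates changes of low genes. The fit was tested on simulated data.

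Members and lists were chosen with earlier results of these data known. Named members were those with the largest changes that passed, the most abundant and the smallest p of each family, and families with 1 measured member. SLC4A4, SLC6A8, SLC6A9, SLC6A13, SLC7A2, SLC12A2, SLC16A9, SLC20A1, SLC22A17, SLC39A10 and SLC43A1 were named after their values were seen. Alternatives covered the pseudocount, the filter on low values, scaling, transcripts, covariates, moderation, group make-up and single libraries. Results of some single genes are not reported here.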

Additional observations from a re-analysis of the deposited data

Results flagged for a closer look

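Among 279 groups of 4 to 10 eyes, 13 held 1 eye whose gap to the others was larger than Dixon's test allows at 95%, and chance gives about 1 group in 20. In unoperated 5-week eyes, SLC15A3 was at 72.17 FPKM in replicate 6 against 30.8 to 41.9 FPKM in the others. SLC46A3 was listed at 0 in the same library, against 1.95 to 2.55 FPKM. SLC4A11 was at 5.45 FPKM in replicate 1 against 0.77 to 1.37 FPKM, and SLC46A1 at 12.03 FPKM in replicate 7 against 8.33 to 9.69 FPKM. SLC22A6 was at 2.88 FPKM in replicate 5 against 26.6 to 58.9 FPKM, and SLC7A7 at 0.19 FPKM in replicate 2 against 1.40 to 2.14 FPKM.

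In unoperated 6-month eyes, SLC7A7 was listed at 0 in replicate 1 against 1.13 to 2.55 FPKM, and SLC43A3 was at 21.2 FPKM in the same library against 12.4 to 14.8 FPKM. SLC26A11 was at 11.76 FPKM in replicate 6 against 5.78 to 7.21 FPKM.

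In operated 6-month eyes, replicate 4 had 49.6 FPKM of SLC7A5 against 37.4 to 41.0 FPKM, and 16.91 FPKM of SLC27A6 against 25.8 to 30.9 FPKM. Replicate 6 had 106.46 FPKM of SLC13A4 against 45.9 to 60.9 FPKM, and 13.46 FPKM of SLC48A1 against 17.8 to 20.9 FPKM.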

How the results depend on the processing

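The members called after surgery at 6 months were 18 higher with equal FPKM sums, and 3 higher and 5 lower with the macrophage covariate. In juveniles they were 16 higher and 41 lower with operated 5-week eyes alone, and 1 higher and 2 lower with the covariate, under which 8 of the 106 calls at 6 months and 3 of the 92 in juveniles were kept. For age in unoperated eyes the counts were 8 higher and 10 lower with lens and photoreceptor covariates, and 1 higher and 6 lower without the lens-rich libraries. For age in operated eyes the higher count was 5 with 5-week eyes alone, 3 with 6.5-week eyes alone and 4 with equal sums. It was 0 with only the groups compared, and 2 without the late-numbered 5-week libraries (those whose title numbers follow the rest). Without the lens-rich libraries it was 3. The lower count for age in operated eyes was 8 with 6.5-week eyes alone and 22 with equal sums. It was 6 with only the groups compared and 9 without the lens-rich libraries. For the difference of surgery effects the higher count was 0 with either juvenile group alone, with the lens and photoreceptor covariates, and without the late-numbered or the lens-rich libraries, and the lower count was 1 without the late-numbered libraries. The cause was not tested. Leaving out 1 library at a time gave 29 to 37 higher and 64 to 75 lower after surgery at 6 months, 20 to 27 and 60 to 69 in juveniles, 13 to 17 and 15 to 24 for age in unoperated eyes, and 3 to 14 and 10 to 15 for age in operated eyes. It gave 0 to 2 higher and 0 to 1 lower for the difference of effects, and 0 higher and 0 to 1 lower for 6.5 against 5 weeks. The juvenile change of SLC2A1 turned to -0.01 with equal sums. No paired analysis was possible because the replicate numbers are in accession order and pair no samples.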
